A study of Mus musculus with 10 samples.

Results

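The itaconate, nitric oxide and arginine genes were a set of 7 named genes, Acod1, Nos2, Gch1, Ass1, Slc7a2, Arg1 and Arg2, taken by symbol from the 55573 genes of a table of RNA-Seq values from mouse bone marrow–derived macrophages (BMDMs). All 7 were found in the table. BMDMs are macrophages grown from bone marrow in the growth factor M-CSF, and here they came from WT female C57BL/6 mice. The cells were treated for 4 hours in 5 groups of 2 libraries each, labeled biological replicates, and the study asked how a natural pair of TLR7 ligands compares with a synthetic one. The groups received vehicle, 5 μg polyU (a uridine ssRNA complexed with the lipid carrier DOTAP), PNPi+dG/rG (1 μM of the purine nucleoside phosphorylase inhibitor ulodesine with 5 μM deoxyguanosine and 5 μM guanosine), PNPi+dG/rG+polyU (both together), or 1 ng/mL R848, an imidazoquinoline. TLR7 is an endosomal receptor with 1 site for guanosines or imidazoquinolines and another for ssRNA. Inhibitor and guanosines were always given together, so their effects cannot be told apart. DOTAP is named only for the groups given polyU, and no group is labeled as DOTAP alone. Effects of polyU and of its carrier therefore cannot be told apart either. The labels do not say how many mice or cultures the replicates came from, so p-values measure the spread between these libraries only.

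Activated macrophages rewire the use of citrate and of arginine. Acod1 diverts the citric acid cycle intermediate cis-aconitate into itaconate, which inhibits succinate dehydrogenase and carries antimicrobial and anti-inflammatory actions. Nos2 oxidizes arginine to nitric oxide and citrulline with the cofactor tetrahydrobiopterin, whose synthesis is limited by Gch1, while Slc7a2 imports arginine, Ass1 starts the recycling of citrulline to arginine, and the arginases Arg1 (cytosolic) and Arg2 (mitochondrial) split arginine into ornithine and urea.

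Values were given in CPM, read counts scaled by the depth of each library, and the libraries held from 14128123 to 38392592 reads on genes, with PNPi+dG/rG the deepest group and PNPi+dG/rG+polyU the shallowest, so 3 reads, taken as the limit of detection, corresponded to between 0.0781 and 0.212 CPM. Intervals on reads and this limit cover counting error only. The 11 macrophage markers (Adgre1, Cd68, Csf1r and Lyz2 among them) summed to between 18376 and 21207 CPM per library, and 6 dendritic cell markers to at most 0.991 CPM. Lyz2 was the largest part of the macrophage sum, at 7756 to 11494 CPM, and single markers moved in both directions. Mertk had 40.3 and 40.6 CPM after vehicle, 9.84 and 8.16 after PNPi+dG/rG+polyU and 5.36 and 5.66 after R848. Cd14 had 466 and 482, 1061 and 1124, and 2985 and 3136 in the same order. In limma at an adjusted p under 0.05, 5 of the 11 rose and 6 fell after PNPi+dG/rG+polyU. After R848, 2 rose and 7 fell, or 7 and 4 with libraries centred on the median. The 6 T cell markers summed to 6.65 to 9.70 CPM in 8 libraries, mostly through Cd4, and to 1.38 and 1.68 CPM in R848, through Cd4 and Lck. Cd3e and Cd3d had no reads in any group. The 7 fibroblast markers summed to 102.6 and 109.9 CPM in the R848 libraries, against 0.449 to 1.26 CPM in the other 8. Col1a1, Col1a2 and Col3a1 made up most of that R848 sum, whereas Lum and Thy1 had at most 0.0612 CPM there. The 8 neutrophil markers summed to 23.0 and 25.2 CPM in R848, against 3.48 to 8.85 CPM in the other 8. S100a8 made up most of the R848 neutrophil sum, whereas 5 of the 8 had no reads there and S100a9 had 0.0531 and 0 CPM against 1.18 and 1.46 after vehicle. Ly6g and Retnlg were at 0 in every group. The sum of the 5 endothelial markers went the other way, with 64.5 and 69.8 CPM in R848 and 143 to 246 CPM elsewhere, Tek being at or near 0. Kdr and Vwf made up most of that sum. Pecam1 was instead higher in R848, at 1.06 and 1.07 CPM against 0.337 and 0.0562 after vehicle. The part of these markers in the R848 results was not tested. In bulk RNA, fewer cells of a type and less RNA per cell cannot be told apart.

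The promoters of Acod1, Gch1 and Ass1 are shown because no promoter sequence was available here for the rest of the 7 genes. All 3 genes rose in every group given polyU or R848, by different sizes, and the windows differ in base composition. Each sequence is from RefSeq on GRCm38.p6, 5′ to 3′ on the gene's own strand, and runs from 250 bases before the start site to 50 bases from it. Capitals mark matches, on either strand, to the motifs named next. The RefSeq promoter table used here had an entry for 3 of the 7 genes.
Acod1, chr14:103046762-103047061, plus strand: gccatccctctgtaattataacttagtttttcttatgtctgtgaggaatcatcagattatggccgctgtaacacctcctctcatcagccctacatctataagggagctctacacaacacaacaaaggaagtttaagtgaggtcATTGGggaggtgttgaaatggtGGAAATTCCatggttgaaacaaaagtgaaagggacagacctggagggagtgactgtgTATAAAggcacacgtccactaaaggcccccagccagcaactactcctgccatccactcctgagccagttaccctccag
Gch1, chr14:47189364-47189663, minus strand: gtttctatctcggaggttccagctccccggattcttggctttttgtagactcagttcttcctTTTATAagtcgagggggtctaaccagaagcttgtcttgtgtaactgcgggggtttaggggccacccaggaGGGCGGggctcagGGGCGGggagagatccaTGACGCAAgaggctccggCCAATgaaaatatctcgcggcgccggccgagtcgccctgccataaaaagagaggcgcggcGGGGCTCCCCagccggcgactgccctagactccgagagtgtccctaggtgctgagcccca
Ass1, chr2:31470020-31470319, plus strand: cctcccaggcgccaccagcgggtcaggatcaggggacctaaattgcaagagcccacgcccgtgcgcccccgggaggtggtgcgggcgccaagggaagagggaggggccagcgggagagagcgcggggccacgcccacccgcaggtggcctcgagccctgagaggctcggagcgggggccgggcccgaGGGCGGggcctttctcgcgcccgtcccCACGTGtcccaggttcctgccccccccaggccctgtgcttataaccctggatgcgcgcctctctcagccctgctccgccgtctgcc

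The Acod1 window was lower in GC than the median promoter, with 47% GC and 2 CpG dinucleotides, and 85.9% of the 32851 promoters in the same table had as many CpG or more. Gch1 (60.3% GC, 20 CpG, 26.5% with as many or more) and Ass1 (74% GC, 27 CpG, 15.5%) were CpG-rich, against medians of 52.7% GC and 7 CpG. In Acod1 a TATAAA began 28 bases before the start site (such letters are in 13.6% of promoters), a GGAANTTCC, the palindromic form of an NF-κB site, 85 bases before it (0.928%), and a reverse CCAAT 107 bases before it (37.4%). Gch1 carried a TGACGNAA (a CRE-like sequence) 88 bases before the start site (1.59%), a CCAAT at 70 bases, GGGCGG at 118 and 105 bases (35.7%), a reverse TATAAA at 188 bases, and a match to the NF-κB consensus at 10 bases (8.46%). Ass1 held a GGGCGG at 63 bases and a CACGTG E box at 36 bases (7.15%). The AP-1 letters TGANTCA (7.81% of promoters) and the interferon-stimulated response element (3.44%) were in none of the 3 windows. GGAANTTCC and TGACGNAA were added to the search after the sequences had been read. No 2 of the matches shared a base, and a match is a description of letters, not of binding.

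Acod1 (ENSMUSG00000022126, chr14:103046977-103056573 on GRCm38, plus strand) had 62.3 and 62.1 CPM after vehicle, 613 and 673 after polyU, 70.6 and 89.9 after PNPi+dG/rG, 4284 and 4358 after PNPi+dG/rG+polyU, and 4112 and 4274 after R848. It was moderate in unstimulated BMDMs, intermediate after polyU, and among the genes with the most reads in the last 2 groups, which came close to each other without overlap (4274 against 4284 CPM) and stood far above all others. As a share of all reads this was 0.00623% and 0.00621% after vehicle and 0.428% and 0.436% after PNPi+dG/rG+polyU, which moved the gene from rank 3537 by reads to ranks 9 and 10 of all genes, while R848 placed it at rank 13 in both libraries. The log2 change from vehicle was 3.37 ± 0.10 (SE) after polyU (limma, adjusted p = 1.97e-07), 6.12 ± 0.10 after PNPi+dG/rG+polyU (adjusted p = 8.31e-10), a 69.4-fold rise, and 6.07 ± 0.10 after R848 (adjusted p = 4.70e-10). After PNPi+dG/rG alone the difference was 0.36 ± 0.10 (adjusted p = 0.293, unadjusted p = 0.0104).

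Nos2 (ENSMUSG00000020826, chr11:78920787-78960254, plus strand) was low after vehicle, at 0.449 and 0.730 CPM (8 and 13 reads), and after PNPi+dG/rG, at 0.469 and 0.455 CPM. It reached 2.95 and 4.77 CPM after polyU, 78.0 and 93.1 after PNPi+dG/rG+polyU, and 288 and 321 after R848. These last 3 groups overlapped neither one another nor the first 2, which overlapped. Nos2 rose by a log2 change of 2.71 ± 0.25 after polyU (adjusted p = 4.47e-06), 7.22 ± 0.25 after PNPi+dG/rG+polyU (149-fold, adjusted p = 9.21e-11) and 9.05 ± 0.25 after R848 (531-fold, adjusted p = 5.33e-12), and its value after PNPi+dG/rG alone was -0.31 ± 0.25 (adjusted p = 0.798). By summed reads the ratio to vehicle was 145 (95% interval 94.7 to 235) and 524 (342 to 846) for PNPi+dG/rG+polyU and R848.

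Gch1 (ENSMUSG00000037580, chr14:47153895-47189413, minus strand) had 34.5 and 33.6 CPM after vehicle, 56.5 and 66.5 after polyU, 39.2 and 38.1 after PNPi+dG/rG, 137 and 143 after PNPi+dG/rG+polyU, and 161 and 168 after R848. The groups followed one another without overlap, from vehicle through PNPi+dG/rG, polyU and PNPi+dG/rG+polyU to R848. Its log2 change from vehicle was 0.85 ± 0.07 after polyU (adjusted p = 1.25e-07), 2.04 ± 0.07 after PNPi+dG/rG+polyU (4.12-fold, adjusted p = 3.83e-13) and 2.28 ± 0.07 after R848 (4.84-fold, adjusted p = 4.51e-14). After PNPi+dG/rG alone it was 0.18 ± 0.07 (adjusted p = 0.370, unadjusted p = 0.0179).

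Slc7a2 (ENSMUSG00000031596, chr8:40862396-40922308, plus strand) was already expressed after vehicle, at 50.7 and 45.2 CPM, and stood at 57.2 and 48.8 after polyU and 45.8 and 47.1 after PNPi+dG/rG. It reached 213 and 238 CPM after PNPi+dG/rG+polyU and 783 and 788 after R848, so vehicle overlapped both polyU and PNPi+dG/rG, and the last 2 groups stood apart from these 3 and from each other. Slc7a2 rose 4.70-fold after PNPi+dG/rG+polyU (log2 change 2.23 ± 0.08, adjusted p = 8.91e-12) and 16.4-fold after R848 (4.04 ± 0.08, adjusted p = 7.32e-15), while the log2 difference was 0.14 ± 0.08 after polyU (adjusted p = 0.172, 95% interval -0.03 to 0.31) and -0.05 ± 0.08 after PNPi+dG/rG (adjusted p = 0.941). An overlapping lincRNA on the opposite strand, Gm26584, had at most 0.106 CPM in any library.

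Ass1 (ENSMUSG00000076441, chr2:31470207-31520672, plus strand) had the smallest rise after PNPi+dG/rG+polyU and after R848 of the 5 genes other than the arginases. It had 29.6 and 31.7 CPM after vehicle, 41.4 and 44.5 after polyU, 33.9 and 31.8 after PNPi+dG/rG, 59.0 and 54.7 after PNPi+dG/rG+polyU, and 60.3 and 58.5 after R848. The polyU libraries lay between vehicle and the other 2 stimulated groups, which overlapped. Ass1 rose by a log2 change of 0.49 ± 0.07 after polyU (adjusted p = 5.62e-05), 0.89 ± 0.07 (1.85-fold) after PNPi+dG/rG+polyU (adjusted p = 1.53e-08) and 0.96 ± 0.07 (1.94-fold) after R848 (adjusted p = 3.50e-09).

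The arginases were low throughout, and neither reached the level of Nos2 per length of exon after polyU, PNPi+dG/rG+polyU or R848. Arg1 (ENSMUSG00000019987, chr10:24915221-24927484, minus strand) had 0.281 and 0.225 CPM after vehicle, 0.568 and 0.174 after polyU, 0.0781 and 0.134 after PNPi+dG/rG, 0.354 and 0.141 after PNPi+dG/rG+polyU, and 1.06 and 1.13 after R848. Vehicle, polyU and PNPi+dG/rG+polyU overlapped, PNPi+dG/rG lay just below them and R848 above, and the values rested on 2 to 10 reads per library, or 20 and 37 in R848. Arg1 passed the filter of at least 1 CPM in at least 2 libraries only through R848, so it had to differ there: the log2 change was 2.13 ± 0.81 (adjusted p = 0.0243) and the ratio of summed reads 4.38 (95% interval 2.15 to 10.1), and the adjusted p was 0.0823 without vehicle replicate 2, 0.0670 without R848 replicate 1 and 0.0741 without R848 replicate 2.

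Arg2 (ENSMUSG00000021125, chr12:79130777-79156301, plus strand) had 3 reads in vehicle replicate 1 and 0 in replicate 2 (0.168 and 0 CPM, where a count of 0 allows up to 0.169 CPM), 0.398 and 0.291 CPM after polyU, 0.339 and 0.160 after PNPi+dG/rG, 3.54 and 2.95 after PNPi+dG/rG+polyU, and 14.6 and 15.5 after R848. The last 2 groups stood above all other libraries and did not overlap each other. By summed reads, PNPi+dG/rG+polyU was 38.5 (95% interval 12.8 to 190) times vehicle, R848 180 (61.2 to 873) times vehicle, and R848 4.66 (3.75 to 5.85) times PNPi+dG/rG+polyU. In limma on the deposited values, log2 changes of Arg2 were 9.62 ± 3.33 after PNPi+dG/rG+polyU (adjusted p = 0.0468) and 11.84 ± 3.33 after R848 (adjusted p = 0.0191), sizes set by the offset of 0.0001 CPM that stands for the 0 of vehicle replicate 2. With a pseudocount of 1 CPM they were 1.97 and 3.89. The first call was lost on leaving out any 1 of the 8 libraries that were not vehicle (adjusted p from 0.0686 to 0.134), and the second without R848 replicate 1 (0.0629) or replicate 2 (0.0619). Vti1b, a gene on the opposite strand whose exons overlap Arg2, had 55.1 to 85.3 CPM in all 10 libraries, and vehicle replicate 2 had 1146 reads on it with 0 on Arg2.

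**Figure D1:**
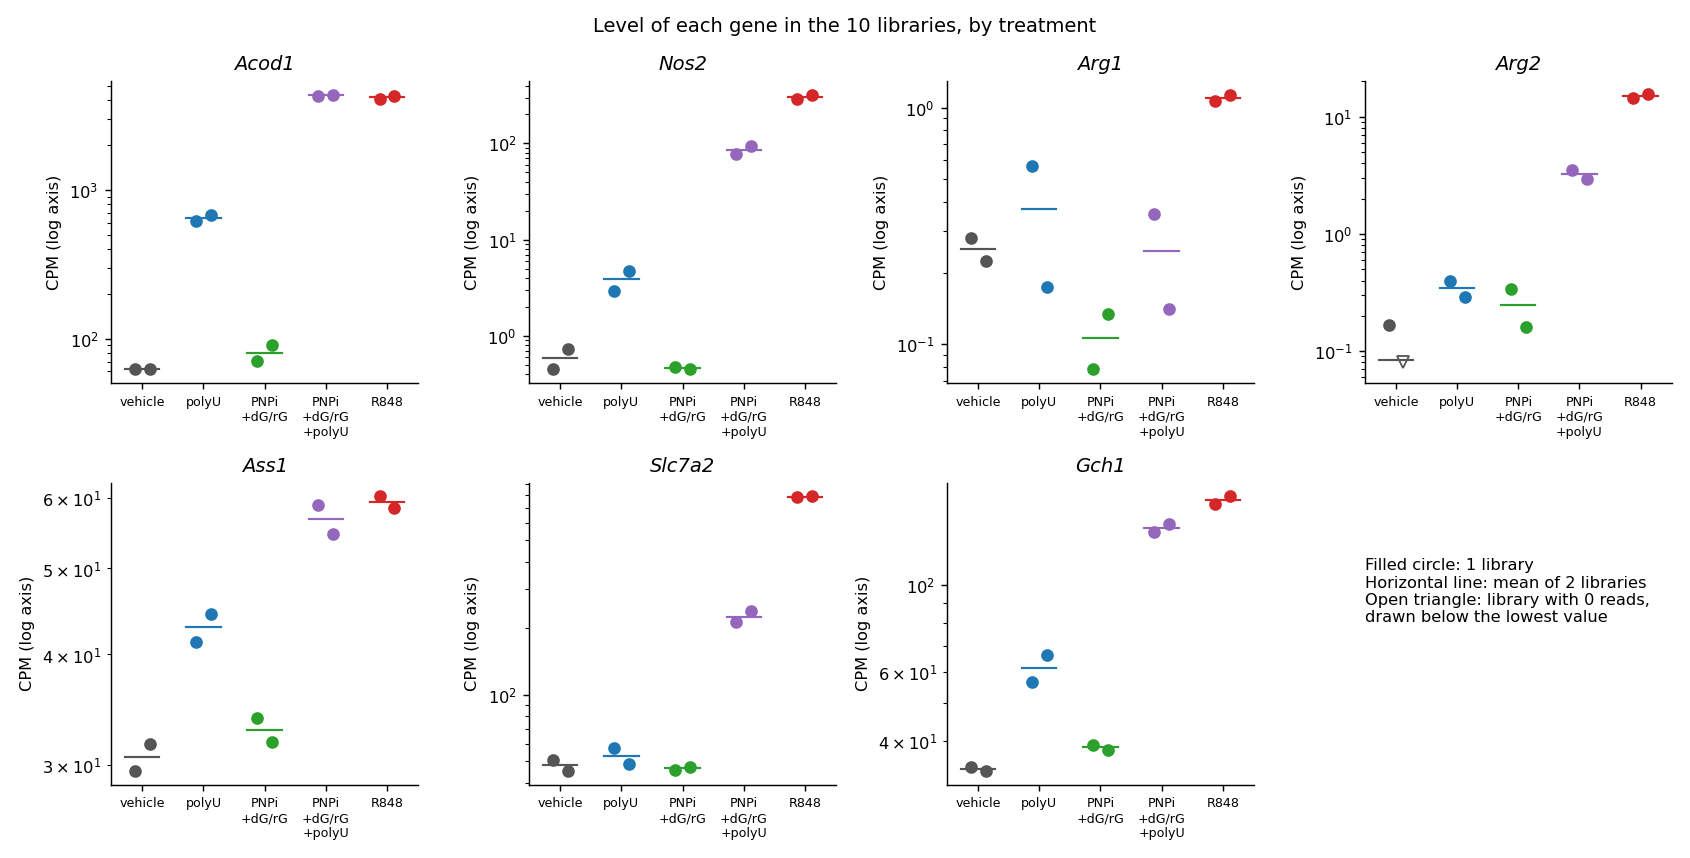
CPM of the 7 genes on log axes, 1 panel per gene, with 1 point per library, a line at the mean of the 2 libraries of a group, and an open triangle for the library with 0 reads on Arg2. Acod1 lies between 4112 and 4358 CPM in the PNPi+dG/rG+polyU and R848 libraries, while Nos2, Slc7a2 and Arg2 are highest in R848 and Arg1 does not exceed 1.13 CPM.

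After polyU against vehicle, 4 of the 7 genes rose and 0 fell at an adjusted p under 0.05, a background in which 20.6% of the 11978 genes tested were higher and 18.7% lower. Acod1 and Nos2 rose at least 2-fold (3.21% of genes tested, with 0.776% at least 2-fold lower). Nos2 passed the filter only through the groups given polyU or R848, so the counts rest on Acod1, Gch1 and Ass1, with Acod1 at least 2-fold higher. The median of the 7 log2 changes was 0.85 against 0.02 over all genes tested, and centred libraries, in which each library's values were taken relative to their median, gave 4 genes higher, with 17.2% of all genes higher. Slc7a2 did not pass, although it did without polyU replicate 2 (0.26, adjusted p = 0.0237), nor did Arg1 at 0.33 ± 0.81 (adjusted p = 0.794). Arg2, at 6.37 ± 3.33 (adjusted p = 0.201), passed with a pseudocount of 0.1 CPM (1.43, adjusted p = 0.00975) and without vehicle replicate 1, and its summed reads were 4.09 (95% interval 1.11 to 22.6) times vehicle.

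After PNPi+dG/rG alone, 0 of the 7 passed in limma, where 0.409% of genes tested were higher and 0.392% lower (0.0668% and 0.00835% at least 2-fold), and 2 of the 7 (Acod1 and Gch1, both higher) had an unadjusted p under 0.05. Median log2 change was 0.10 for the 7 and 0.02 over all genes tested. The 95% intervals of the log2 difference were -0.21 to 0.12 for Slc7a2, -0.05 to 0.25 for Ass1, 0.04 to 0.33 for Gch1, 0.11 to 0.60 for Acod1 and -0.85 to 0.23 for Nos2. Arg1 was at -1.30 ± 0.81 (adjusted p = 0.707) and Arg2 at 5.83 ± 3.33 (adjusted p = 0.716), the latter passing without vehicle replicate 1. Without PNPi+dG/rG replicate 1 the Acod1 difference was 0.53 and passed (adjusted p = 0.000130).

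After PNPi+dG/rG+polyU against vehicle, 6 of 7 rose and 5 of them at least 2-fold, Arg1 being the exception with a log2 difference of -0.17 (95% interval -1.90 to 1.56). Arg2 passed the filter only through this group and R848 and did not pass without that filter (adjusted p = 0.0892). Nos2 passed the filter only through the groups given polyU or R848. The count therefore rests on Acod1, Slc7a2, Gch1 and Ass1, all but Ass1 at least 2-fold higher. Of all genes tested, 22.2% were higher and 46.7% lower, with 8.12% higher and 14.3% lower at least 2-fold. The median log2 change was 2.23 for the 7 and -0.22 over all genes tested, a shift of the whole distribution in that comparison that centring each library on its median removed: 6 were still higher, with 33.2% of all genes higher, and log2 changes were then 6.33 for Acod1, 7.43 for Nos2, 2.44 for Slc7a2, 2.25 for Gch1 and 1.10 for Ass1.

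R848 against vehicle raised all 7 genes (19.2% of genes tested were higher, 62.9% lower), 6 of them at least 2-fold (8.89%, with 30.3% at least 2-fold lower). Arg1 passed the filter only through R848, Arg2 only through R848 and PNPi+dG/rG+polyU, and Nos2 only through the groups given polyU or R848. The count therefore rests on Acod1, Slc7a2, Gch1 and Ass1, all but Ass1 at least 2-fold higher. The median was 4.04 against -0.50 over all genes tested, and centred libraries gave 7 higher with 43.0% of all genes higher, and log2 changes of 6.67 for Acod1, 9.65 for Nos2, 4.63 for Slc7a2, 2.87 for Gch1 and 1.55 for Ass1. The fibroblast marker sum of 102.6 and 109.9 CPM, mostly from Col1a1, Col1a2 and Col3a1, stood beside these values, and its part in them was not tested.

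**Figure D2:**
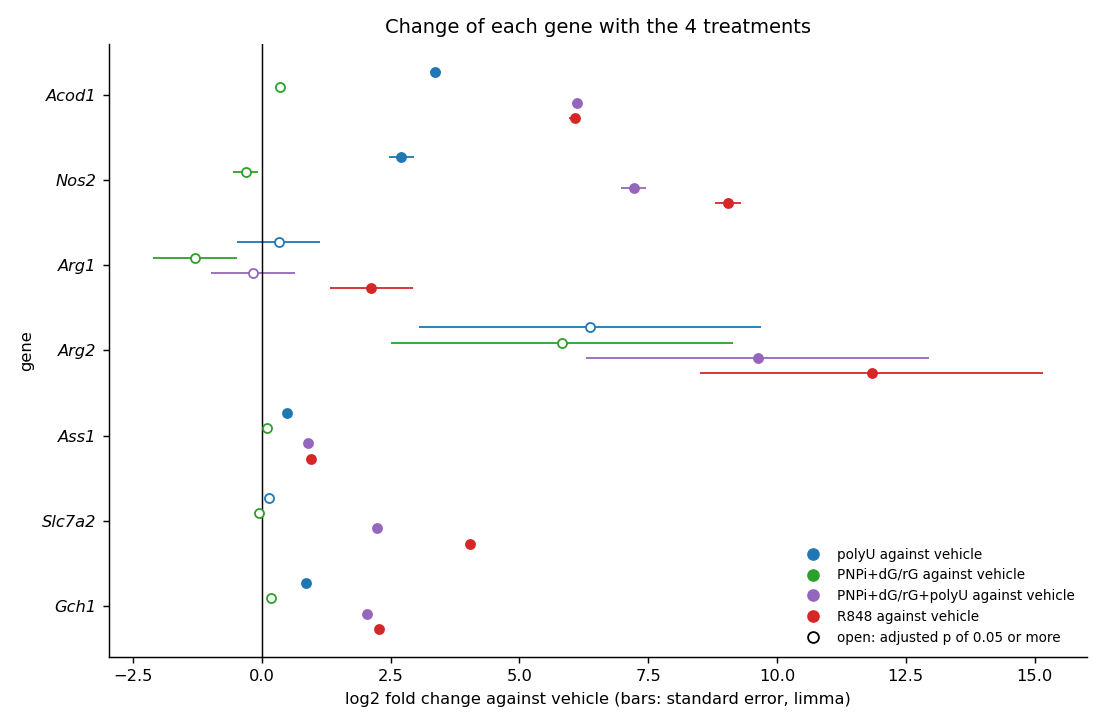
Log2 fold changes of the 7 genes from vehicle in the 4 treated groups, with standard errors from limma (hidden by the point where small) and open points where the adjusted p was 0.05 or more. Acod1 sits at 6.12 after PNPi+dG/rG+polyU and 6.07 after R848, whereas Nos2 is at 7.22 and 9.05 and Slc7a2 at 2.23 and 4.04.

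Adding PNPi+dG/rG to polyU raised 5 of the 7 genes above polyU alone (15.8% of genes tested were higher, 47.5% lower), 4 of them at least 2-fold (5.29%, with 10.2% at least 2-fold lower), and the median log2 change was 2.09 against -0.24 over all genes tested. Nos2 rose by a log2 change of 4.51 ± 0.25 (adjusted p = 1.43e-08), Acod1 by 2.75 ± 0.10 (adjusted p = 2.00e-07), Slc7a2 by 2.09 ± 0.08 (adjusted p = 3.42e-11), Gch1 by 1.19 ± 0.07 (adjusted p = 5.84e-10) and Ass1 by 0.40 ± 0.07 (adjusted p = 0.000131). Centred libraries gave the same count of 5, with 30.1% of all genes higher. The Arg2 difference was 3.25 ± 3.33 (adjusted p = 0.436), while its summed reads differed 9.42-fold (95% interval 5.14 to 18.9), and it passed with pseudocounts of 0.1 and 1 CPM (2.92 and 1.66, adjusted p = 7.59e-06 and 3.10e-08), with only the groups compared (adjusted p = 1.79e-05) and without either vehicle library (adjusted p = 0.000161 and 8.06e-06). Arg1 was at -0.50 ± 0.81 (adjusted p = 0.611).

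Whether PNPi+dG/rG acted differently with and without polyU was tested as the interaction, the effect with polyU minus the effect without it. It was positive for 5 of the 7 genes (11.8% of genes tested were positive and 38.9% negative), at least 2-fold for 4 (4.55%, with 8.87% negative at that size), with a median of 1.01 against -0.27 over all genes tested, or 24.1% positive on centred libraries. The values were 4.82 ± 0.35 for Nos2 (adjusted p = 4.05e-07), 2.39 ± 0.15 for Acod1 (adjusted p = 7.28e-06), 2.14 ± 0.11 for Slc7a2 (adjusted p = 2.68e-09), 1.01 ± 0.10 for Gch1 (adjusted p = 5.67e-07) and 0.30 ± 0.10 for Ass1 (adjusted p = 0.0196). Nos2 passed the filter only through the groups given polyU or R848. The counts therefore rest on Acod1, Slc7a2, Gch1 and Ass1, all but Ass1 at least 2-fold. Without polyU, Nos2 had 8 and 13 reads after vehicle and 18 and 17 after PNPi+dG/rG. The Gch1 value lay at the 2-fold threshold, at 0.89 without polyU replicate 1. The Ass1 value no longer passed without vehicle replicate 2, polyU replicate 1, PNPi+dG/rG replicate 2 or PNPi+dG/rG+polyU replicate 1 (0.25 to 0.26, adjusted p from 0.0689 to 0.0879), or with no filter on low values (adjusted p = 0.0504). Arg1 did not pass (0.80 ± 1.15, adjusted p = 0.581), nor did Arg2 (-2.58 ± 4.70, adjusted p = 0.682), whose interaction was positive and passed with pseudocounts of 0.1 and 1 CPM (1.87 and 1.45, adjusted p = 0.0121 and 2.47e-05) and without vehicle replicate 2 (2.78, adjusted p = 0.00255), and negative and passed without vehicle replicate 1 (-7.94, adjusted p = 7.23e-06).

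**Figure D3:**
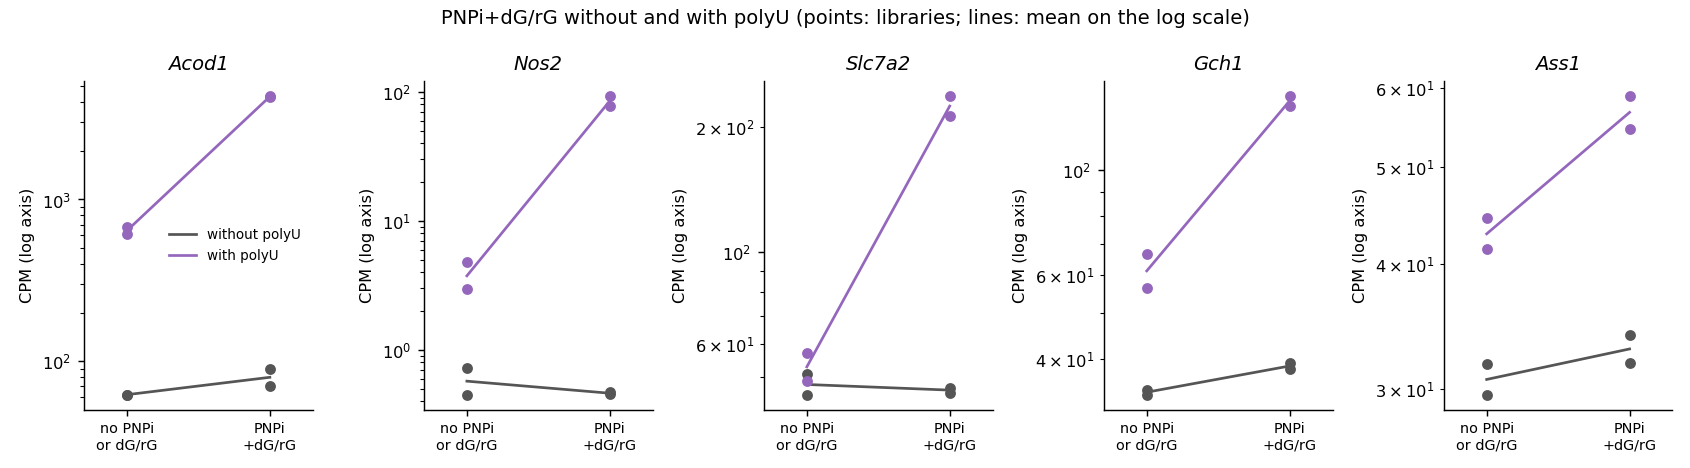
CPM on a log axis of the 5 genes with a positive interaction, in libraries that did or did not receive PNPi+dG/rG, without polyU (gray) and with polyU (purple). Points are libraries and lines join means on the log scale, and the purple lines climb more steeply than the gray ones, for Slc7a2 from 57.2 and 48.8 to 213 and 238 CPM.

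Against R848, PNPi+dG/rG+polyU gave lower values of 4 genes and higher values of 0 (16.9% of genes tested were lower and 53.9% higher), 3 of them at least 2-fold lower (3.86%). Arg1 is among them and entered the test only through R848, so it had to be lower and the counts rest on the other 3 and 2 genes. Slc7a2 was 3.49-fold lower (log2 -1.80 ± 0.08, adjusted p = 1.62e-10), Nos2 3.57-fold lower (-1.83 ± 0.25, adjusted p = 3.44e-05), Arg1 4.91-fold lower (-2.30 ± 0.81, adjusted p = 0.0194, lost without PNPi+dG/rG+polyU replicate 2 or either R848 library, at 0.128, 0.0594 and 0.0649) and Gch1 1.18-fold lower (-0.23 ± 0.07, adjusted p = 0.00698, lost without PNPi+dG/rG+polyU replicate 1 or R848 replicate 2, at 0.0598 and 0.0570). Acod1 did not pass, with a log2 difference of 0.04 ± 0.10 (95% interval -0.20 to 0.29, adjusted p = 0.723), nor did Ass1 at -0.07 ± 0.07 (-0.22 to 0.08, adjusted p = 0.421). Arg2 was 4.64-fold lower without passing (-2.21 ± 3.33, adjusted p = 0.583), but it passed with pseudocounts of 0.1 and 1 CPM (adjusted p = 0.000134 and 3.08e-09), with only the groups compared (5.97e-09) and without either vehicle library (0.00254 and 0.000198). The median log2 difference was -1.80 for the 7 and 0.31 over all genes tested. On centred libraries 6 of 7 were lower (37.5% of all genes), among them Acod1 at -0.34 (adjusted p = 0.0268) and Ass1 at -0.45 (adjusted p = 5.30e-05), so for these 2 genes the outcome depends on the scaling.

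Levels of different genes were compared per kilobase of exon, which is approximate. The length was that of all annotated exons of a gene merged, from 1428 bases for Arg2 to 9135 for Slc7a2. The transcripts expressed in these cells may be shorter. In R848 the mean was 1598 CPM per kb for Acod1, 86.0 for Slc7a2, 69.0 for Nos2, 26.4 for Gch1, 24.6 for Ass1, 10.5 for Arg2 and 0.493 for Arg1. In PNPi+dG/rG+polyU it was 1647 for Acod1, 24.7 for Slc7a2, 23.5 for Ass1, 22.4 for Gch1, 19.4 for Nos2, 2.3 for Arg2 and 0.111 for Arg1, so Slc7a2, Ass1, Gch1 and Nos2 lay between 19.4 and 24.7 CPM per kb, against 24.6 to 86.0 in R848. After vehicle Acod1 (23.7) and Ass1 (12.7) led, and Nos2 (0.134), Arg1 (0.113) and Arg2 (0.0589) were lowest.

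Over the 10 libraries, with group differences included and libraries of 1 group not independent, log2 CPM of Nos2 and Gch1 correlated at a Pearson r of 0.992, Acod1 and Ass1 at 0.988, Acod1 and Slc7a2 at 0.852, and Arg1 and Arg2 at 0.431. Among all other tested genes whose mean reached 10 CPM, the highest r was with Slc31a2, Ifi205 and Tlr2 for Acod1 (0.998 each), Nfkbib and Prkcd, 2 of its top 3, for Nos2 (0.998 each), March1, D16Ertd472e and Rffl for Slc7a2 (0.999, 0.998 and 0.998), Ehd1, Tfec and Plpp1 for Gch1 (0.998 each) and Zfp263, Il10ra and Nfkbie for Ass1 (0.993, 0.992 and 0.992). For Arg2 they were Il17rd, Itgb8 and Il6 (0.982, 0.980 and 0.936) and for Arg1, on few reads, 1810026B05Rik, Ppfibp1 and Slc16a10 (0.910, 0.904 and 0.887). Every Arg2 correlation, that with Arg1 included, takes the 0 reads of vehicle replicate 2 at the offset of 0.0001 CPM. That library therefore weighs heavily in them. Tlr2 is a surface receptor of bacterial lipoproteins, Il10ra a receptor of the cytokine IL-10, and Nfkbib and Nfkbie encode inhibitors of NF-κB.

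Pathway genes around the 7 were read from lists chosen by function, and their counts stand against shares of all genes tested of 20.6% higher and 18.7% lower after polyU, 22.2% and 46.7% after PNPi+dG/rG+polyU and 19.2% and 62.9% after R848. On centred libraries these shares were 17.2% and 22.8%, 33.2% and 33.2%, and 43.0% and 34.6%. After PNPi+dG/rG alone, 0 genes of the 5 pathway lists passed in limma. The list of the citric acid cycle and itaconate metabolism had 23 tested genes, cytosolic enzymes such as Mdh1 among them. Of these, 11 rose and 2 fell (Cs and Ogdh) after polyU, 0 rose and 10 fell after PNPi+dG/rG+polyU (46.7% of all genes fell), and 0 rose and 21 fell after R848 (62.9%), with medians of 0.14, -0.10 and -0.59. Centred libraries gave 7 higher and 4 lower, 9 and 5, and 8 and 6, so the direction of the list after PNPi+dG/rG+polyU and R848 depended on the scaling. The genes at least 2-fold lower after R848 were Idh2, the mitochondrial NADP-dependent isocitrate dehydrogenase (log2 change -1.97, adjusted p = 2.99e-14), Mdh1, the cytosolic malate dehydrogenase (-1.38, adjusted p = 6.44e-13), and Suclg2, a subunit of succinyl-CoA ligase (-1.11, adjusted p = 3.67e-08), and on centred libraries they were at -1.37, -0.79 and -0.52. Sdha, the catalytic subunit of the succinate dehydrogenase that itaconate inhibits, was at -0.45 after R848 and at 0.14 on centred libraries.

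Of 5 tested genes of tetrahydrobiopterin synthesis and recycling, 3 rose after polyU (Pts, Qdpr and Pcbd2), 1 rose (Pts) and 2 fell, Spr among them, after PNPi+dG/rG+polyU (46.7% of all genes fell), and 5 fell after R848 (62.9%), Pts being at 0.35 there when centred. Centred libraries gave 2 higher and 0 lower, 3 and 0, and 1 and 3 in the same order. Spr, the last enzyme of the synthesis, fell by 1.45 after R848 (adjusted p = 2.62e-10) or 0.86 when centred. Gchfr, the feedback regulator of Gch1, and Pcbd1 had at most 0.171 and 0.0267 CPM.

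On the nitric oxide side, Nos1 and Nos3, the other synthases, had at most 0.393 and 0.339 CPM in any library. Among the 5 tested regulators, 0 rose and 3 fell (Nostrin, Ddah2 and Nosip) after PNPi+dG/rG+polyU (46.7% of all genes fell), and 1 rose (Cyb5r4) and the same 3 fell after R848 (62.9%), where Nosip was higher when centred (0.21, adjusted p = 0.00795), or 1 and 1, and 2 and 2, on centred libraries. The remaining regulator, Ddah1, entered the test only through R848 and did not pass there. It had 24 and 48 reads in R848 against 1 and 0 after vehicle. Nostrin, which binds the endothelial synthase, went from 33.2 and 35.5 CPM after vehicle to 10.5 and 14.1 after PNPi+dG/rG+polyU and 5.10 and 4.29 after R848. Both groups lay below vehicle, 2.82-fold (adjusted p = 3.91e-08) and 7.34-fold (adjusted p = 5.76e-12), with centred log2 changes of -1.28 and -2.28. The endothelial marker sum was also lower than after vehicle in both groups, at 143 CPM in each PNPi+dG/rG+polyU library and 64.5 and 69.8 in R848, and its part in the Nostrin values was not tested.

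The list of cationic amino acid transport and related carriers, not all of them cationic, had 6 tested genes other than Slc7a2. After polyU, 1 rose (Slc7a7) and 3 fell (Slc7a1, Slc7a5 and Slc7a6). After PNPi+dG/rG+polyU, 2 rose (Slc7a7 and Slc3a2) and 4 fell, the same 3 and Slc25a15 (22.2% and 46.7% of all genes). After R848, 1 rose and 4 fell (19.2% and 62.9%), with Slc25a15 at 0.12 when centred. Centred libraries gave 1 and 3, 2 and 3, and 2 and 2 in the same order. Slc7a1, another arginine importer, had 156 and 154 CPM after vehicle, 98.9 and 94.8 after polyU, 113 and 111 after PNPi+dG/rG+polyU and 103 and 99.1 after R848. All 3 stimulated groups lay below vehicle, by log2 changes of -0.68 (adjusted p = 2.64e-08), -0.47 (adjusted p = 3.27e-07) and -0.62 (adjusted p = 6.26e-09), and when centred these were -0.72, -0.25 and -0.02, the last with an adjusted p of 0.689. Slc7a7, a light chain of a transporter that exports cationic amino acids, rose by 0.69 after PNPi+dG/rG+polyU and 0.49 after R848 (adjusted p = 5.01e-06 and 9.84e-05).

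Of 21 tested genes of the urea cycle and of ornithine, proline and polyamine metabolism, 3 rose (Asl, Sat1 and Gamt) and 5 fell (Azin1, Amd1, Sms and Aldh18a1 among them) after polyU, 3 rose (Asl, Odc1 and Sat1) and 12 fell after PNPi+dG/rG+polyU (22.2% and 46.7% of all genes), and 1 rose (Smox) and 17 fell after R848 (19.2% and 62.9%), or 3 and 7, 7 and 8, and 5 and 10 on centred libraries. Asl, which completes the recycling that Ass1 starts, had a log2 change of 0.38 after polyU, 0.23 after PNPi+dG/rG+polyU and -0.20 after R848 (adjusted p = 0.000216, 0.00439 and 0.00893), the last being 0.40 when centred. Sat1, which acetylates polyamines, had 59.9 and 55.0 CPM after vehicle, 127 and 125 after PNPi+dG/rG+polyU and 55.2 and 55.4 after R848. Of these 3 groups the combination was highest, with a log2 change of 1.13 (adjusted p = 5.21e-10) against -0.05 (adjusted p = 0.472) for R848, which was 0.54 (adjusted p = 3.99e-06) when centred, and the 2 groups differed by 1.19 (adjusted p = 4.75e-10), or 0.80 when centred. Glul, glutamine synthetase, fell by 1.41 and 1.84 (adjusted p = 8.21e-12 and 1.37e-13), and Paox, a polyamine oxidase, had log2 changes of -1.21 and -3.40 (adjusted p = 2.03e-05 and 4.94e-11). Odc1, the first enzyme of polyamine synthesis, lay between 91.4 and 111 CPM in all 10 libraries, and Otc, the urea cycle enzyme of liver, had at most 0.0535 CPM.

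**Figure D4:**
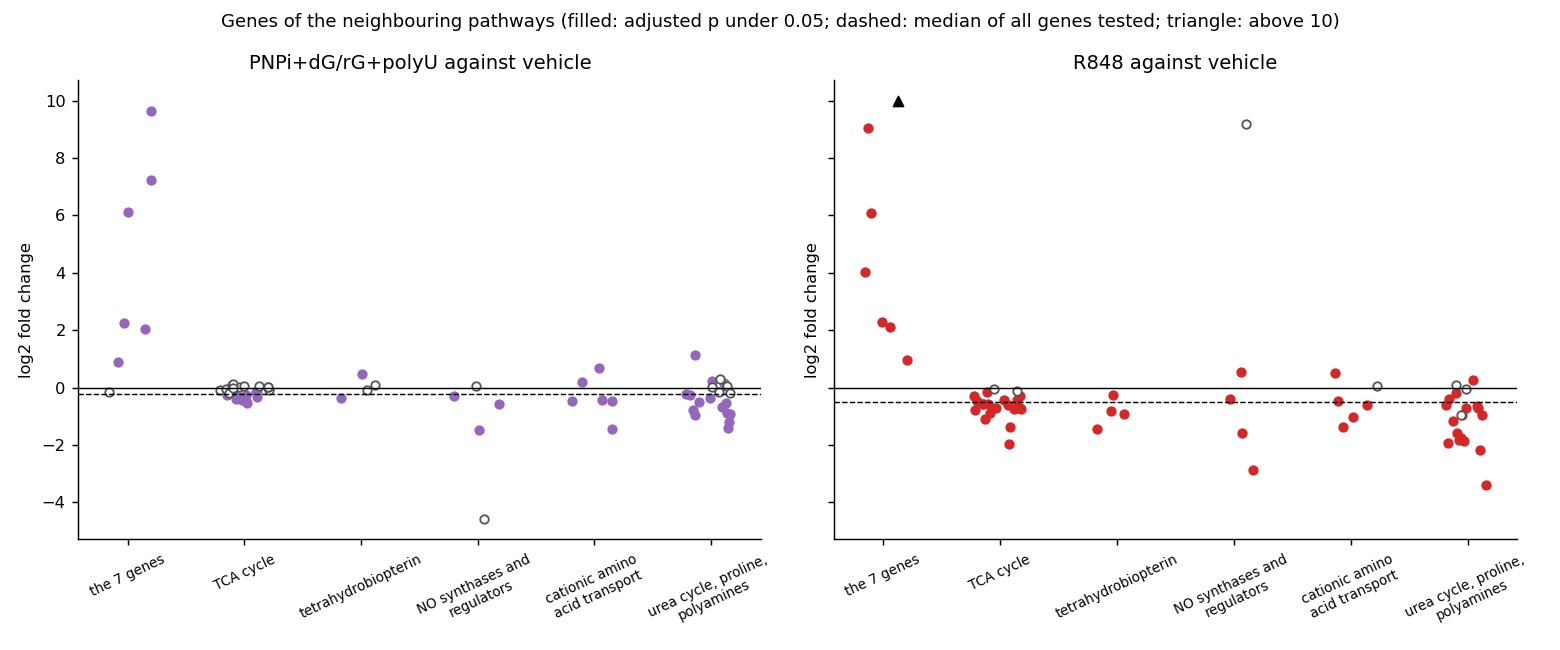
Log2 changes from vehicle of the 7 genes and of the genes of the surrounding pathway lists, after PNPi+dG/rG+polyU and after R848. Filled points passed an adjusted p of 0.05, the dashed line is the median of all genes tested (-0.22 and -0.50) and the triangle is Arg2 at 11.84. The genes Paox (-3.40) and Nostrin (-2.88) are the lowest filled points after R848, the 7 genes lie mostly above 0, and 2 genes of the lists are not drawn.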

How the data were processed

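RNA-Seq was run on 10 libraries of mouse BMDMs. The authors deposited 1 table in CPM with an offset of 0.0001 on every value. Per the paper's methods they mapped stranded mRNA reads with STAR to GRCm38, counted them on Ensembl genes and normalized them in Partek Flow, and the submitters' processing notes name bcl2fastq 2.19.1.403 and STAR 2.27a. The counting rule for overlapping genes and the strand setting are not given in the sources used here. Of 55573 identifiers, 55394 matched a symbol in GENCODE M21.

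Low values, less the offset, were whole multiples of 1 read (100% within 0.02 of a step), which gave the depth of each library and the reads behind each value. The 11978 genes that reached 1 CPM in 2 or more libraries entered the test, on log2 of the deposited values with limma 3.58.1 in R 4.3.3 (trend and robust eBayes, statmod 1.5.0), 1 fit of 5 groups, with Benjamini-Hochberg adjustment within each of 7 comparisons. A gene passed at an adjusted p under 0.05. Read ratios carry exact 95% intervals (scipy 1.17.1).

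All 7 genes were named in every comparison. From the pathway lists, up to 4 called genes with the largest change and at least 10 CPM in the higher group were eligible, with those behind counts of 5 or fewer, and for each of the 7 the 3 genes most correlated. Others, among them Sdha, Nos1, Nos3, Ddah1, Gchfr, Pcbd1, Otc, Slc7a7 and Asl, were chosen after their values were seen. A few genes of the lists are counted but not reported by name here. The genes and lists were chosen with earlier results of these data known. Alternatives were pseudocounts of 0.1 and 1, other filters, centring each library on its median, plain eBayes, only the groups compared, a replicate block and leaving out each library.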

Additional observations from a re-analysis of the deposited data

Results flagged for a closer look

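For 5 of the 7 genes the effect of PNPi+dG/rG differed with and without polyU in limma, with the 2 effects differing on the log2 scale by 4.82 for Nos2, 2.39 for Acod1, 2.14 for Slc7a2, 1.01 for Gch1 and 0.30 for Ass1. The adjusted p ran from 2.68e-09 for Slc7a2 to 0.0196 for Ass1, which no longer passed on leaving out any 1 of 4 libraries or with no filter on low values. Nos2 passed the filter only through the groups given polyU or R848, so the count rests on Acod1, Slc7a2, Gch1 and Ass1. No group had enough libraries for a test of single libraries that stand apart.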

How the results depend on the processing

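Of 875 recomputed values of single genes, 821 kept their direction and whether they were called (adjusted p under 0.05 and at least 2-fold), 12 changed sign, 17 gained a call and 25 lost one. By the adjusted p alone, 21 newly passed and 25 no longer did. Among counts of genes changed at least 2-fold, 125 of 126 stayed within 1.5 times, and PNPi+dG/rG went from 0 to 1 without vehicle replicate 1, which left the vehicle library with 0 reads on Arg2 (log2 11.19). Leaving out each library gave 2 to 3 genes for polyU, 0 to 1 for PNPi+dG/rG, 4 to 5 for PNPi+dG/rG+polyU, 4 to 6 for R848, 4 to 5 against polyU, 2 to 4 against R848 and 3 to 5 for the interaction. Sign changes concerned Arg1, Arg2 and values near 0. The Arg2 interaction was 1.87 with a pseudocount of 0.1, 1.45 with 1, and -7.94 to 2.78 on leaving out a library. Arg1 with PNPi+dG/rG+polyU was 0.041 on centred libraries and -0.84 to 0.49 on leaving out a library, with polyU -0.53 to 1.18, against polyU -1.35 to 0.36 and in the interaction -0.0521 to 1.65. Acod1 against R848 was -0.34 on centred libraries, and with PNPi+dG/rG alone Slc7a2 ran from -0.13 to 0.0375 and Nos2 from -0.66 to 0.0403. Filtering on the mean left Arg1 untested. The cause of these changes was not tested, apart from the 0 reads of Arg2. Correlations of deviations between libraries of the same replicate number ran from -0.286 to 0.109, with a median of -0.023. With 2 libraries a group, these values cannot tell whether libraries shared a preparation. With the replicate block, 4 genes changed at least 2-fold with PNPi+dG/rG+polyU in place of 5, Arg2 having an adjusted p of 0.0520 in limma. The block changed no other call. The count tests planned with 2 other tools were not run. Depth limits Arg1, Arg2 and unstimulated Nos2, which rest on 21 reads or fewer in vehicle.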

Other observations

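Of 10 regulators known to act on the 7 genes, 5 rose and 2 fell (Irf8 and Hif1a) after polyU, and 7 rose and 2 fell (Irf8 and Stat6) both after PNPi+dG/rG+polyU and after R848, with 4 and 2, 8 and 2, and 8 and 1 on centred libraries. Of all genes tested, 20.6% rose and 18.7% fell after polyU, 22.2% and 46.7% after PNPi+dG/rG+polyU, and 19.2% and 62.9% after R848. Irf8 after R848 was at 0.05 when centred. Nfkb1, the NF-κB precursor p105, rose by 2.55 and 2.88 in the last 2 (adjusted p = 1.16e-16 and 7.90e-18). Irf1, an interferon-inducible factor, had 21.5 and 22.2 CPM after vehicle, 27.6 and 29.6 after PNPi+dG/rG, 102 and 115 after polyU, 261 and 242 after PNPi+dG/rG+polyU and 63.0 and 69.4 after R848, and was 1.93 higher after PNPi+dG/rG+polyU than after R848 (log2, adjusted p = 3.34e-12). It was the regulator that passed after PNPi+dG/rG alone (0.39, adjusted p = 0.0193). Hif1a, the oxygen-regulated factor, had 201 and 197 CPM after vehicle, 205 and 206 after PNPi+dG/rG+polyU and 812 and 794 after R848. It was 1.96 lower after PNPi+dG/rG+polyU than after R848, and Stat3 1.26 lower (log2, adjusted p = 1.42e-13 and 7.90e-12).

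Among 5 tested markers of alternative activation, 1 rose and 1 fell after PNPi+dG/rG+polyU (22.2% and 46.7% of all genes). After R848, 1 rose and 3 fell (19.2% and 62.9%), and centred libraries gave the same counts. The median of the 5 after R848 was -0.97, or -0.37 when centred. Il4ra, the IL-4 receptor chain, rose by 1.64 after PNPi+dG/rG+polyU and 2.74 after R848 (adjusted p = 5.27e-13 and 5.27e-16). Mrc1, the mannose receptor, fell by 0.74 and 0.97 (adjusted p = 7.84e-10 and 1.27e-11). Chil3 had 1.85 and 1.74 CPM after vehicle and 0.0531 and 0 after R848. After R848 the lectin Clec10a, at no more than 2.61 CPM in any library, fell by 2.26 (adjusted p = 1.01e-05). Retnla had at most 0.0306 CPM.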
